A study of Mus musculus with 13 samples.

Results

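H3K27me3 on gene bodies was compared between 4T1 cells carrying a non-targeting sgRNA (sg-Ctrl) and 4T1 cells with Nup210 knocked out by CRISPR/Cas9 (KO, clone KO-N13). The 4T1 line comes from a spontaneous mammary tumor of a BALB/cJ mouse. The comparison rests on 2 peak lists, which pair each H3K27me3 peak with every RefSeq gene body that it meets by at least 1 bp. They held 9555 distinct peaks in sg-Ctrl and 8874 in KO, together 18429 of the 64739 peaks in the 6 lists of the series. There was 1 library per condition, so no test between conditions was possible, and each difference below is one between these libraries. The KO cells were a clone expanded from a single sorted cell, and whether sg-Ctrl was a clone is not given in the sources used here. A difference between clones and an effect of the knockout therefore cannot be told apart. The study asked with these libraries whether loss of NUP210 changes heterochromatin. Reads carry exact Poisson intervals and shares carry Wilson intervals, both at 95%, which cover counting error only.

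H3K27me3, the trimethylation of lysine 27 on histone H3, is placed by Polycomb repressive complex 2 and marks genes that a cell type keeps silent, often as broad domains that take in the whole gene. Promoters in use carry H3K4me3 instead. In differentiated cells the genes of other lineages, such as neuronal genes in an epithelial cell, are typical members of H3K27me3 domains. NUP210 is a transmembrane protein of the nuclear pore complex, which can anchor chromatin at the nuclear edge.

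The position of the peak edge relative to the gene start is one of the results, and 4 promoters at which the lists disagreed on it are shown for that reason. Kalrn, which encodes a guanine nucleotide exchange factor, and Tll1, which encodes a tolloid-like protease, had the gene start covered in KO alone. Lama2, which encodes a laminin alpha chain, and Trpc4, which encodes a cation channel, had it covered in sg-Ctrl alone. They have the longest such changes among genes of at least 20 kb, outside 1 chromosome left out, whose promoter the RefSeq table of GRCm38.p6 holds within 100 bp of the listed start. Each line gives the 250 bases before the start, 5′ to 3′ on the gene's strand, with CpG dinucleotides (CG, the same on both strands) in capitals. The windows are chr16:34514028-34514277 (minus strand) for Kalrn, chr8:64206009-64206258 (minus strand) for Tll1, chr10:27616943-27617192 (minus strand) for Lama2 and chr3:54155807-54156056 (plus strand) for Trpc4.
Kalrn: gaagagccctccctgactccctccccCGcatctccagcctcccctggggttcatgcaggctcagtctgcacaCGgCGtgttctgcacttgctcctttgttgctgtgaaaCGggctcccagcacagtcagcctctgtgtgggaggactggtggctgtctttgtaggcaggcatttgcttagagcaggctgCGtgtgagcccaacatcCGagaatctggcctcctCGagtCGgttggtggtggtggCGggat
Tll1: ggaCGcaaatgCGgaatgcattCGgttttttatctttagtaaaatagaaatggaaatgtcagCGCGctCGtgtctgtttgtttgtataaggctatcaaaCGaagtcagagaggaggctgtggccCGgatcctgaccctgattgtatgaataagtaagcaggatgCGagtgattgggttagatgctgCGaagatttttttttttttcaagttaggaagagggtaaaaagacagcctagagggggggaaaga
Lama2: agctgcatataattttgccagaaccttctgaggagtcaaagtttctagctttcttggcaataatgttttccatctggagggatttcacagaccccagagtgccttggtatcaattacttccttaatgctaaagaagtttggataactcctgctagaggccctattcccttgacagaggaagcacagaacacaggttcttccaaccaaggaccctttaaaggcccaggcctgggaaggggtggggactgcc
Trpc4: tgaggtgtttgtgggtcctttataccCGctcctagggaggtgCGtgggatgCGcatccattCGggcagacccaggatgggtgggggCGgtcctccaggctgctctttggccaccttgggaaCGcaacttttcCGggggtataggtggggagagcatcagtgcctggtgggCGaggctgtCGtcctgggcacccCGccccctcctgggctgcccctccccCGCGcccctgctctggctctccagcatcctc
Kalrn had 9 CpGs in this window, Tll1 10, Lama2 0 and Trpc4 12. Of the 27025 genes with a promoter in that table, 91.7% held at least 1 CpG in the same window and 40.7% held 9 or more. CpG-poor and CpG-rich starts thus both occurred where sg-Ctrl alone was covered. Tll1 lies on chromosome 8, which had more cover in KO as a whole.

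Depth differed, with 26811061 reads in peaks in KO against 7719297 in sg-Ctrl, and relative to the single IgG library behind both lists KO was sequenced 3.16 times more deeply. Reads were therefore divided by the library ratio of each list. A deeper library can still pass the peak caller's threshold where a shallower one does not, and the part of depth in the genes called in KO alone was not tested. The median of scaled reads per kb of peak was 32.5 in sg-Ctrl and 28.5 in KO. Genes of other lineages carried the mark and epithelial genes did not. None of the 9 mammary epithelial markers, among them Krt8, Krt18, Epcam and Cdh1, had an H3K27me3 peak in either list, while 8 of the 9 had an H3K4me3 peak at the TSS in both. Of 6 immune markers, 3 (Ptprc, Cd3e and Cd4) had H3K27me3 in both lists, as did 3 of 5 fibroblast markers (Col1a2, Dcn and Lum). Neuronal markers had it in 3 of 5 in sg-Ctrl and 4 of 5 in KO. Endothelial markers had it in 0 of 3 and 2 of 3, where Cdh5 and Kdr each had a 9 kb stretch covered in KO. Nup210, the edited gene, had no H3K27me3 peak and an H3K4me3 peak in both conditions, which does not check the knockout.

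An H3K27me3 peak met 5860 genes in either list, 4977 in sg-Ctrl and 5123 in KO, of which 4240 were in both. A peak was present in KO alone for 883 genes (15.1% of the 5860) and in sg-Ctrl alone for 737 (12.6%). Counting each base once, these gene bodies spanned 444 Mb, of which 156 Mb (35.2%) lay under sg-Ctrl peaks and 174 Mb (39.2%) under KO peaks, at a ratio of 1.11. The excess was the balance of changes in both directions. A change of at least 2-fold and at least 5 kb in covered length was called a gain for 739 genes (12.6%) and a loss for 600 (10.2%). Of the gains 362 had no peak in sg-Ctrl, and of the losses 352 had none in KO. Among the 4240 genes with a peak in both lists, covered length was higher in KO for 1620, lower for 927 and equal for 1693. The excess of gains over losses depended on how weak peaks were treated. It held with peaks of FDR at most 0.01 (729 gains, 599 losses) and was smaller with those of at least 1.5-fold over IgG (694 and 650). When only peaks of 2-fold or more over IgG were kept, 696 genes gained and 705 lost, and with a common floor of 21.8 scaled reads per kb the counts were 630 and 662. Peaks below the scaled IgG level made up 2.48% of the sg-Ctrl list and 4.56% of the KO list.

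**Figure D1:**
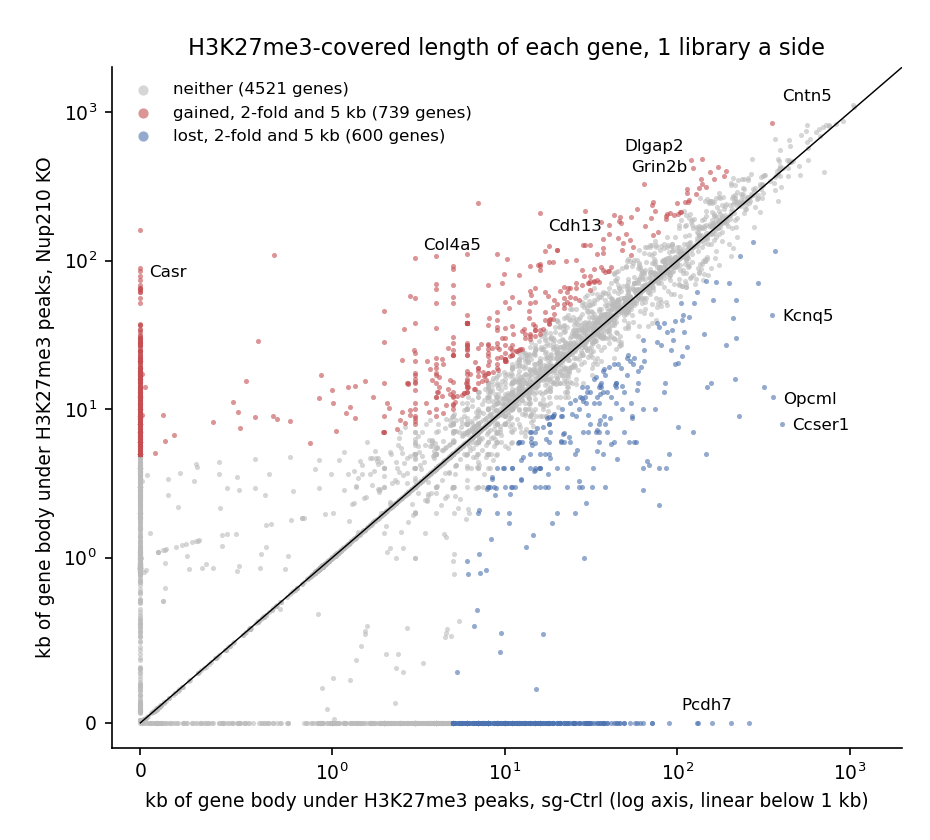
Each point is a gene, at the kb of its body under H3K27me3 peaks in sg-Ctrl (horizontal) and in Nup210 KO (vertical), on log axes that are linear below 1 kb, with 1 library a side. Red points are the 739 genes that gained at least 2-fold and 5 kb, blue points the 600 that lost as much and grey points the rest, and the line marks equal cover. Points on the axes are genes with a peak in 1 list alone, such as Casr, at 68.4 kb in KO, and Pcdh7, at 132 kb in sg-Ctrl.

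Reads in peaks differed little in the median but widely between genes. For the 4240 genes with a peak in both lists, scaled reads in each list's peaks were summed over the joined region of both lists. The sums were compared as log2 of KO over sg-Ctrl. A stretch with a peak in 1 list alone added reads for that list only, so this ratio also follows covered length. The median was 0.07, with 95% order-statistic bounds of 0.04 and 0.09, and 53.8% of the genes were above 0. Over each list's own peaks the median log2 ratio was -0.13 (-0.14 to -0.11), and 33.8% were above 0. The direction of the median thus flipped with the region over which reads were counted. The 5th and 95th percentiles of the first ratio were -1.61 and 1.90. A peak could serve several genes, since 8.00% of the sg-Ctrl peaks and 9.69% of the KO peaks met more than 1 gene, so genes are not independent of each other.

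From 10 kb up, longer genes more often had a peak, and had less of their body under it. Of the RefSeq genes under 10 kb, 14.2% (13.6 to 14.9) had an H3K27me3 peak in sg-Ctrl and 16% (15.3 to 16.7) in KO. It was lower at 10 to 20 kb, at 13% (12.1 to 14) in sg-Ctrl and 14% (13 to 15) in KO. From there the share rose to 71.7% (65.6 to 77.2) and 74.3% (68.3 to 79.6) for genes of 500 kb and over. In each class between 20 and 500 kb it was lower in KO, with overlapping intervals, as at 200 to 500 kb with 50.4% (47 to 53.9) against 48.7% (45.2 to 52.2). A long gene has more room to meet a peak, so the covered percent of the body was compared next. Its median over genes with a peak fell with length, from 100% under 10 kb in both lists to 23.2% (sg-Ctrl) and 26.2% (KO) for the longest class. From 10 to 500 kb the KO median was the higher one in each class, for example 63.6% against 52.5% at 20 to 50 kb and 42.5% against 33.6% at 100 to 200 kb. The order-statistic intervals of these medians were apart at 20 to 50 kb (49.4 to 56.6% in sg-Ctrl, 59.0 to 67.3% in KO) and overlapped in each other class from 10 kb up, as at 100 to 200 kb (27.6 to 40.3% and 37.5 to 47.7%) and at 500 kb and over (19.5 to 26.9% and 19.5 to 35.4%).

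**Figure D2:**
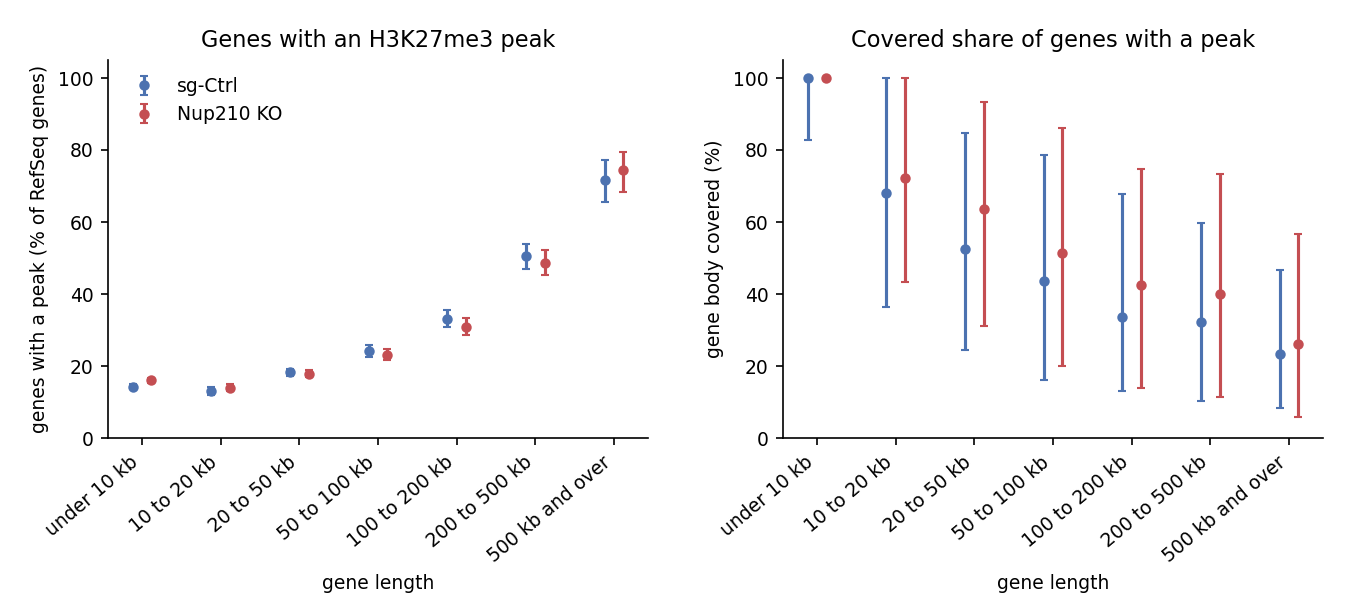
The left panel gives the percent of RefSeq genes of each length class that had an H3K27me3 peak, with 95% Wilson intervals, and the right panel the percent of the gene body covered in genes with a peak, as the median with the quartiles, for sg-Ctrl (blue) and Nup210 KO (red). Between the shortest and the longest class the share with a peak goes from 14.2% to 71.7% in sg-Ctrl and from 16% to 74.3% in KO, while the median covered percent falls.

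Gains and losses were balanced differently along the length scale. Genes of 500 kb and over counted 38 gains (24.2%) and 16 losses (10.2%), and those of 200 to 500 kb 103 gains (23.1%) and 71 losses (16%). The order was the opposite at 100 to 200 kb, with 94 gains (17.5%) and 119 losses (22.2%), and at 50 to 100 kb, with 108 and 123. At 20 to 50 kb gains led again, with 204 against 158, and at 10 to 20 kb with 134 against 75. Genes under 10 kb could seldom pass the 5 kb limit and counted 58 gains and 38 losses. Covered length summed over genes was higher in KO in each class, with ratios from 1.03 at 100 to 200 kb to 1.15 at 500 kb and over.

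Among the longest genes, those with the widest changes in covered percent included several genes of neurons. Dlgap2 (chr8:14095875-14847686), a postsynaptic scaffold gene, was covered over 120 kb in sg-Ctrl and 478 kb in KO, or 16% and 63.6% of its body. Dlgap2 lies on chromosome 8, which had more cover in KO as a whole. Mdga2 (chr12:66466059-67222549), which encodes an adhesion protein that restrains synapse formation, had 138 and 485 kb covered (18.2 and 64.1%). In the opposite direction, Kcnq5 (chr1:21398403-21961942), a potassium channel gene, had 351 kb covered in sg-Ctrl and 43 kb in KO (62.3 and 7.63%), and Ccser1 (chr6:61180325-62382863) 404 and 8 kb (33.6 and 0.67%). Kcnq5 peaks held 9256 reads (9068 to 9447) in sg-Ctrl and 2379 (2284 to 2477) in KO before scaling, although KO was the deeper library. At 200 to 500 kb, Lrrc7, which encodes a postsynaptic density protein, went from 123 to 423 kb and Ntrk3, the receptor gene of neurotrophin 3, from 7 to 243 kb. Plcl1, which encodes a phospholipase C-like protein, went from 260 kb (74.7% of the body) to no peak. Its sg-Ctrl peaks held 17972 reads, counted over whole peaks that also reach outside the gene. Kcnh5, another potassium channel gene, went from 219 to 30 kb.

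Genes of 10 to 200 kb included some that were covered nearly whole in 1 list and hardly in the other. A full switch between no peak and the whole body was rare at 20 kb and over, with 7 genes going from no peak in sg-Ctrl to whole cover in KO and 4 the other way round. Casr (chr16:36493696-36562134), the calcium-sensing receptor gene, had no peak in sg-Ctrl and was covered whole in KO by a peak of 13401 reads (13175 to 13630), 3.10-fold over IgG. Il15, which encodes a cytokine for lymphocytes, went from 13.5% to 100% covered, and Ddx60, an interferon-induced helicase gene, from 0.63% to 100%. The carboxylesterase genes Ces1g and Ces1d had no peak in sg-Ctrl and lay under a single peak of 22178 reads in KO, so they count as 1 event. Il15, Ddx60, Ces1g and Ces1d lie on chromosome 8, which had more cover in KO as a whole, with gains in 25.2% of its genes. Cdh6, a cadherin gene of 139 kb, went from 2.87% to 77.3%. Among the losses, Mgam, which encodes the intestinal maltase-glucoamylase, was covered at 92.2% of 140 kb in sg-Ctrl and had no peak in KO. Trim9, a ubiquitin ligase gene of brain, had 86.4% and no peak. Slc39a8, a zinc transporter gene, went from 100% to 6.34% and Htr2a, a serotonin receptor gene, from 87.6% to 9.09%. Among genes of 10 to 50 kb, Gbp7 and Folr4 were covered whole in KO and had no peak in sg-Ctrl. Lyve1, Nrep and Txndc8 were covered whole in sg-Ctrl and had no peak in KO. Nrep lies on chromosome 18 and Txndc8 on chromosome 4, which had less cover in KO as a whole. A gene with no peak can still hold reads, since the lists give the reads of peaks only.

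By position, KO peaks took in the ends of genes more often. Of the genes with a peak, the gene start was covered in 55.8% (54.4 to 57.2) in sg-Ctrl and 60.8% (59.4 to 62.1) in KO, and the gene end in 60.6% (59.2 to 61.9) and 66.2% (64.8 to 67.4). In genes of at least 20 kb the shares were 39.0% and 42.4% for the start and 42.4% and 47.4% for the end. The start was covered less often than the end in both lists. At 500 kb and over sg-Ctrl had the start covered in 19.3% (13.7 to 26.5) and the end in 30.3% (23.4 to 38.3). A gene was covered from start to end without a gap 1568 times in sg-Ctrl and 1964 times in KO. Of the 1568, 1334 were also covered whole in KO and 126 had no peak there. Of the 1964, 317 had no peak in sg-Ctrl, and 160 of those 317 were olfactory or vomeronasal receptor genes. Peaks that stayed inside a gene and touched neither end were seen in 1159 genes in sg-Ctrl and 1000 in KO.

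**Figure D3:**
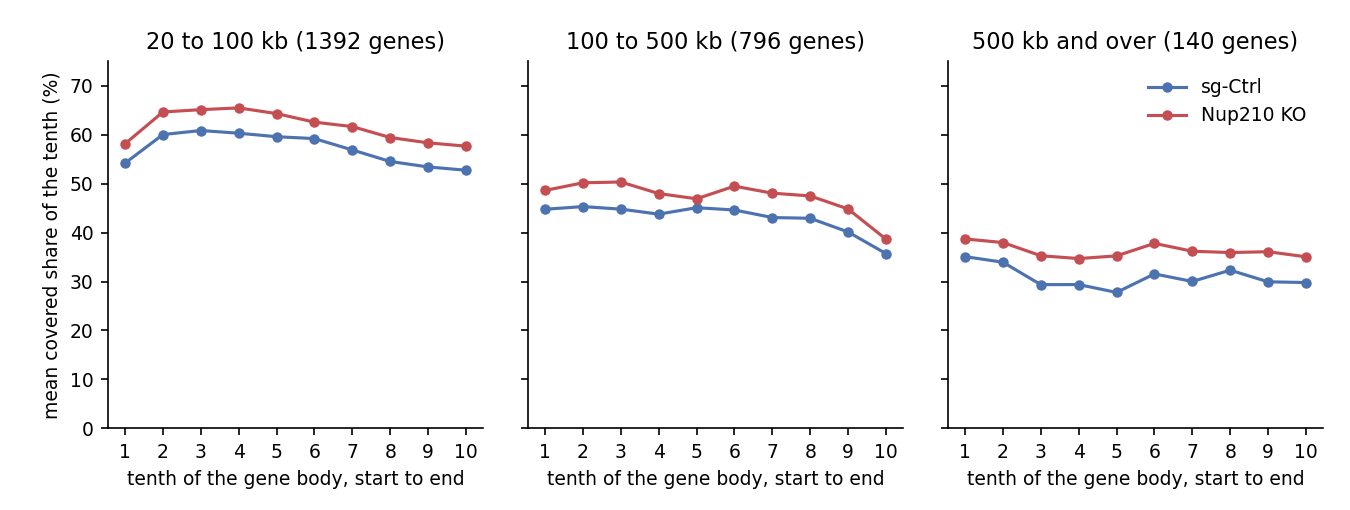
Mean percent of each of 10 equal parts of the gene body under H3K27me3 peaks, from gene start (1) to gene end (10), in genes with a peak in both lists, for sg-Ctrl (blue) and Nup210 KO (red) in 3 length ranges. KO lies above sg-Ctrl in every part of the gene in all 3 panels, and below 500 kb cover is lower in the last part than in the third in both lists.

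The added cover was spread along the gene. In the 2328 genes of at least 20 kb with a peak in both lists, the mean covered share in sg-Ctrl was 49.8% in the first of 10 equal parts of the gene, 53.5% in the third, which was the highest, and 45.5% in the last. In KO each part was higher, by 3.89 to 4.93 percentage points. In the first part 263 genes went above 50% covered in KO and 156 went below it, and in the last 240 and 140 did so. Each part therefore held losses beside its gains.

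Single edges differed by much of the length of a gene. The run of cover that begins at the gene start was 0 kb in sg-Ctrl and 320 kb in KO in Kalrn, where 15 peaks in sg-Ctrl faced 2 in KO while covered length was 313 and 323 kb. In Hmcn1, which encodes the matrix protein hemicentin, the run was 139 kb in sg-Ctrl and the whole 431 kb in KO, and in Hpse2, a heparanase-like gene, 37.4 and 264 kb. The opposite was seen in Lama2, with 209 kb in sg-Ctrl and 0 kb in KO, where covered percent was 90.2 and 74.3, and in Trpc4, with 162 and 0 kb, where covered length was 162 and 152 kb. Htr4, a serotonin receptor gene, had a run of 144 kb and 0 kb although 97.4% of it was covered in KO. An edge a few kb from the start can thus decide this measure, as in Tll1, where the run was 0 and 191 kb and covered percent 98.4 and 100. Over all 4240 genes in both lists, the start was covered in KO alone for 374 and in sg-Ctrl alone for 211, and the end for 315 and 168.

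H3K4me3 at the TSS, measured in other libraries of the same cells, differed with the H3K27me3 pattern. In genes of at least 20 kb, an H3K4me3 peak of sg-Ctrl cells was present in 9.71% (6.37 to 14.5) of the genes covered whole by H3K27me3 in sg-Ctrl, in 22.3% (19.9 to 24.9) of those with cover inside alone and in 29.4% (25.6 to 33.4) of those with the start but not the end covered. NUP210 peaks of sg-Ctrl cells were present on 77.7% (71.5 to 82.8) of the genes covered whole, whose median length was 30.1 kb, and on 43.6% (40.6 to 46.6) of those with cover inside alone, with a median of 101 kb. The NUP210 peaks were weak, at a median of 1.19-fold over IgG, and 15.2% lay below the scaled IgG level. Of the 13204 peaks, 4093 had an FDR above 0.05. Where the H3K27me3 lists disagreed on the start, H3K4me3 was more frequent at genes with the start covered in sg-Ctrl alone. It was present in sg-Ctrl at 20.4% (15.5 to 26.3) of those 211 genes and at 8.02% (5.68 to 11.2) of the 374 with the start covered in KO alone. By change in cover, H3K4me3 of sg-Ctrl was present at 25.7% (22.3 to 29.3) of the 600 genes that lost, 11.8% (9.64 to 14.3) of the 739 that gained and 12.5% (11.5 to 13.5) of the rest. Genes with an H3K27me3 peak in sg-Ctrl alone had it at 30.0% (26.8 to 33.4) and those with one in KO alone at 9.17% (7.44 to 11.3). The lost genes were longer than the gained ones, at medians of 59.8 and 42.7 kb, and the part of length in this was not tested.

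Neuronal excitability genes were among the classes with many changes. Of 65 voltage-gated ion channel genes with a peak in either list, 21 gained and 9 lost cover (32.3 and 13.8%, against 12.6 and 10.2% over all genes), and 63 had a peak in KO against 52 in sg-Ctrl. Sodium channel subunits, which carry the upstroke of the action potential, gained in 6 of 10 and lost in 0. Scn10a, a channel of sensory neurons, had 3 and 38 kb covered. Calcium channel subunits gained in 4 of 16 and lost in 1, with Cacna1a, the pore of the P/Q-type channel, at 20 and 118 kb. Potassium channels moved both ways, with 10 gains and 8 losses in 38. Kcnt2 had 47.3 kb covered in sg-Ctrl and 178 kb in KO, and Kcnd2, the gene with the longest cover of the class in sg-Ctrl, had 437 and 418 kb.

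Receptors for glutamate and GABA, the main excitatory and inhibitory transmitters of the brain, counted 9 gains and 5 losses in 39 genes (23.1 and 12.8%, against 12.6 and 10.2% over all genes). The NMDA receptor subunit gene Grin2b had 154 and 395 kb covered, the AMPA receptor subunit gene Gria1 37 and 140 kb and the kainate receptor gene Grik4 58 and 222 kb. Among peaks of 2-fold or more over IgG this class had more losses than gains, 11 against 8 in 35 genes. Without chromosomes 4, 5, 8 and 18 it had 9 gains and 0 losses in 29. Channel and receptor genes are long, with class medians of 129 and 198 kb against 21.6 kb for all genes with a peak.

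Synaptic adhesion and scaffold genes gained in 17 and lost in 7 of 51 (33.3 and 13.7%, against 12.6 and 10.2% over all genes). Their covered length was 7769 kb in sg-Ctrl and 9222 kb in KO. They are long, with a class median of 698 kb, and among all genes of 500 kb and over 24.2% gained and 10.2% lost. Among peaks of 2-fold or more over IgG the class counted 12 gains and 8 losses in 40. Beside Dlgap2 and Mdga2, Dlg2, the scaffold PSD-93, had 351 and 845 kb covered, while Opcml, an adhesion gene of neurons, had 358 and 12 kb. Cntn5, a contactin gene, had the longest cover of the class in sg-Ctrl, with 1043 kb there and 1117 kb in KO. Axon guidance genes had 4 gains and 7 losses in 27 (14.8 and 25.9%), and a peak in all 27 in sg-Ctrl but in 20 in KO. Sema3a, a repulsive semaphorin, and the ephrin receptor gene Epha7 had 46.5 and 31 kb covered in sg-Ctrl and no peak in KO, whereas the netrin receptor gene Unc5c had 146 and 311 kb. Slit2, a repulsive guidance gene, had 156 and 89 kb. Sema3a and Slit2 lie on chromosome 5 and Epha7 on chromosome 4, which had less cover in KO as a whole.

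Collagens gained cover in 9 of 26 genes (34.6%, against 12.6% over all genes) and lost as much in 0 (against 10.2%). Col1a2, which encodes a chain of fibrillar type I collagen, had 12.5 and 33.5 kb covered (35.0 and 93.6% of the body). The basement membrane collagen genes Col4a5 and Col4a6, neighbours on chromosome X, had 3 and 103 kb and 40 and 173 kb. Col12a1 had 16 and 87 kb and Col22a1 29 and 128 kb. Shorter cover in KO that stayed under 2-fold was seen in Col25a1, with 281 and 229 kb, and in Col24a1, with 174 and 94 kb. Among peaks of 2-fold or more over IgG the class counted 7 gains and 4 losses in 25. For the 22 collagen genes with a peak in both lists the median log2 ratio of peak reads summed over the joined region was 0.54. It was 0.32 relative to the median of each gene's chromosome. Cadherins, the calcium-dependent adhesion proteins, gained in 6 and lost in 2 of 18 (33.3 and 11.1%). Cdh13 had 16 and 210 kb covered, Cdh10 29.7 and 11 kb and Cdh18 244 and 305 kb. Without chromosomes 4, 5, 8 and 18 cadherins counted 4 gains and 2 losses in 14. Their ratio of covered length was then 1.53, against 1.83 with all chromosomes. Of the 7 integrin genes, Itga9 had 34 kb covered in KO alone, Itga8 had 60.9 kb in sg-Ctrl alone and Itgb8 was covered whole in both.

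Members of clustered gene families shared peaks with their neighbours. The gamma protocadherin genes, which share their last exons and overlap each other on chromosome 18, lost cover in 19 of 19. This was the loss of few peaks, since all 19 met only 3 peaks in sg-Ctrl and 1 in KO. Chromosome 18 had less cover in KO as a whole. The beta genes of the same cluster had a peak in 10 of 16 in sg-Ctrl and 15 of 16 in KO, with 0 gains and 0 losses. The alpha genes had a peak in 14 of 14 in both lists, on 11 peaks in each, with 1 loss. These counts depended on weak peaks. Among peaks of 2-fold or more over IgG, protocadherins as a class counted 34 losses in 48 genes, against 22 in 57 with all peaks. That is more than the 19 gamma genes and the 8 genes outside the cluster can give, so some alpha or beta genes lost cover there. Outside the cluster Pcdh15 had 450 and 594 kb covered and Pcdh7 132 kb and no peak. Without chromosomes 4, 5, 8 and 18 protocadherins counted 1 gain and 1 loss in 7 genes. For the 29 protocadherins with a peak in both lists the median log2 ratio of peak reads over the joined region was -0.76. It was -0.02 relative to the median of each gene's chromosome, which these genes help to set. Keratins, the filament proteins of epithelia, split by cluster. Of the type I genes on chromosome 11, 9 of 10 had a peak in sg-Ctrl and 1 of 10 in KO, and 6 lost cover, among them Krt28, which was covered whole in sg-Ctrl. The type II genes on chromosome 15 had a peak in 4 of 7 in sg-Ctrl and 7 of 7 in KO, with 3 gains, among them Krt2 and Krt73, which share a KO peak of 5026 reads. Since neighbours share peaks, such counts do not stand for independent changes.

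Olfactory and vomeronasal receptors, mostly short genes that sense odours and pheromones, made up the largest of the classes. Of the 872 with a peak, 671 had one in sg-Ctrl and 846 in KO. A peak was present in KO alone at 201 of the 872 (23.1%, against 15.1% over all genes) and in sg-Ctrl alone at 26 (2.98%, against 12.6%). The genes seen in KO alone were most frequent on chromosomes 7 with 49, 2 with 38 and 17 with 31. They had weaker peaks. The median of the highest fold over IgG was 1.72 in KO for these 201 and 2.60 for the 645 with a peak in both lists, and scaled reads per kb were 27.7 and 38.2. The part of the deeper KO library in these calls was not tested. Among peaks of 2-fold or more over IgG, 424 had a peak in sg-Ctrl and 530 in KO. Vmn2r56 had the widest gain, from no peak to 23.1 kb, and Vmn2r85 went from 11.4 kb to no peak. Vmn2r81 was covered over its whole 46.8 kb in both.

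**Figure D4:**
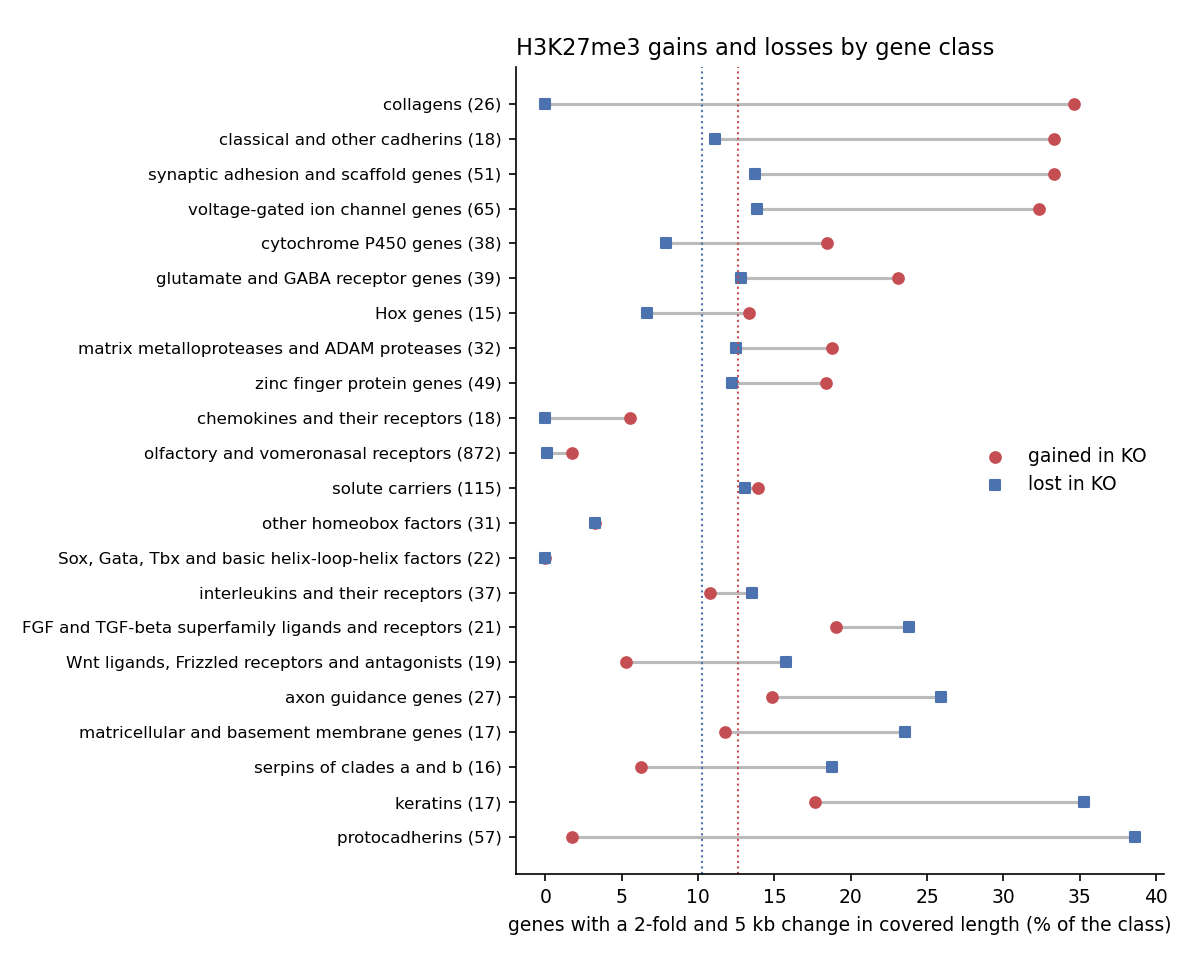
Percent of the genes of each class that gained (red circles) or lost (blue squares) at least 2-fold and 5 kb of H3K27me3 cover in Nup210 KO, with the number of genes that had a peak in either list in brackets. The dotted lines mark the shares over all 5860 genes, 12.6% for gains and 10.2% for losses, and classes are ordered from collagens, with 34.6% gained and 0% lost, to protocadherins, with 1.75% and 38.6%. Most of these protocadherins lie on chromosome 18, which had less cover in KO as a whole.

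Among developmental transcription factors, the classic Polycomb targets, calls of gain or loss were few in number and several genes had a peak in 1 list alone. Of 39 Hox genes, which set position along the body axis, 15 had a peak, 12 in each list. That is 30.8% of the 39 in each list, against 19.0% of all RefSeq genes in sg-Ctrl and 19.5% in KO. They counted 2 gains (13.3%, against 12.6% over all genes) and 1 loss (6.67%, against 10.2%). A peak was in KO alone for 3 of the 15 (20%, against 15.1% over all genes) and in sg-Ctrl alone for 3 (20%, against 12.6%). Hoxb3 had 0.93 and 11.9 kb covered, Hoxb9 no peak and 5.26 kb, and Hoxc13 5.81 kb and no peak. Other homeobox factors counted 1 gain, Lmx1a, at 31 and 79 kb, and 1 loss, Vax2, at 11 kb and no peak, in 31. Sox, Gata, Tbx and basic helix-loop-helix factors counted 0 gains and 0 losses in 22, but a peak in KO alone in 4 and in sg-Ctrl alone in 5, with Sox6 at 383 and 485 kb. These factor genes are short, with class medians of 3.42, 15.6 and 4.69 kb, which leaves less room for a 5 kb change. Among forkhead factors the long Foxp2 had 396 and 311 kb covered. Housekeeping genes were nearly free of the mark in both lists, with a peak at 1 of 85 cytosolic ribosomal protein genes (Rpl39l), 2 of 106 respiratory chain genes (Cox7b2 and Cox8c), 1 of 39 proteasome genes and 0 of 31 nucleoporin genes. These are 1.18, 1.89, 2.56 and 0% in each list, against the 19.0 and 19.5% of all RefSeq genes. The proteasome gene was Psma8, a testis subunit on chromosome 18, with 41.1 and 5.85 kb covered.

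Of the cell migration genes that the study measured beside its ChIP-seq, most had no H3K27me3 peak on the gene body. Ccl2, Cxcl1 and Cxcl3, which encode chemokines, Il1a, Itga7 and Itgb2 had none in either list. Postn (chr3:54361107-54391041), which encodes the matrix protein periostin, had no peak in sg-Ctrl and 18.9 kb covered in KO (63.3% of the body). Its KO peaks held 2092 reads (2003 to 2184), counted over whole peaks that also reach outside the gene. The highest fold over IgG of these peaks was 4.14. The TSS of Postn had an H3K4me3 peak in sg-Ctrl and none in KO. Ptk2, which encodes focal adhesion kinase, had 44 and 42 kb covered, but the highest fold over IgG of its peaks was 0.79 in sg-Ctrl and 0.65 in KO, below the scaled IgG level. Focal adhesion and LINC complex genes as a class had a peak in 2 of 39 in sg-Ctrl and 3 of 39 in KO (5.13 and 7.69%, against 19.0 and 19.5% of all RefSeq genes). Syne1, which encodes a nesprin of the nuclear envelope, had 203 kb covered in both, and Tns1, a tensin gene, 3 kb in KO alone.

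Chromosomes differed in the balance of gains and losses. Covered length on chromosome 4 was 0.61 times the sg-Ctrl value in KO, with 5 gains and 47 losses in 183 genes, on chromosome 18 0.69 times, with 2 and 57 in 172, and on chromosome 5 0.84 times, with 11 and 60 in 271. Chromosome 8 had a ratio of 1.48, with 79 gains and 6 losses in 314 genes. Chromosomes 7, 17 and 12 followed with 1.41, 1.36 and 1.32. The 3 chromosomes 4, 5 and 18 held 10.7% of the genes and 27.3% of the losses, but 2.44% of the gains. Without chromosomes 4, 5, 8 and 18 the counts were 642 gains and 430 losses in 4920 genes (13 and 8.74%).

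**Figure D5:**
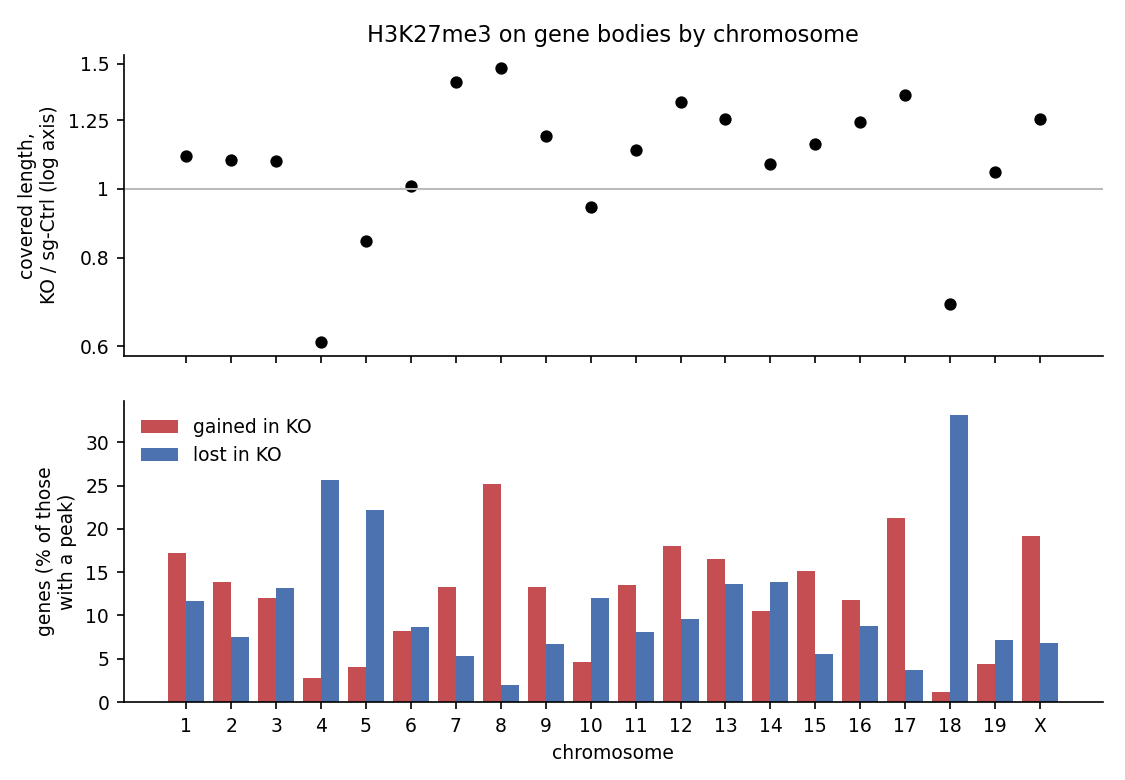
The upper panel gives the ratio of KO to sg-Ctrl in gene body length covered by H3K27me3 on each chromosome (log axis), and the lower panel the percent of the genes with a peak that gained (red) or lost (blue) at least 2-fold and 5 kb. Chromosomes 4, 5 and 18 lie at 0.61, 0.84 and 0.69, with losses above gains, and chromosome 8 lies highest at 1.48.

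Ratios of peak reads on genes were in the same order on these 4 chromosomes. The median log2 ratio of H3K27me3 peak reads over the joined region was -0.92 on chromosome 4, -0.75 on chromosome 18, -0.39 on chromosome 5 and 0.75 on chromosome 8. Since that ratio also follows covered length, it is not a separate measure of it. Read density inside peaks, with each list divided by its own peak length, differed less. Its median log2 ratios were -0.41 on chromosome 4, -0.39 on chromosome 18, -0.27 on chromosome 5 and 0.14 on chromosome 8. H3K4me3, with libraries of its own, had median log2 ratios of -0.72 on chromosomes 4, 5 and 18 and -0.36 on chromosome 8. Across the 20 chromosomes Pearson's r between the covered ratio and the H3K4me3 median was 0.876 and Spearman's coefficient 0.850, as a description, since both rest on the same clones and the same IgG library. That library was used for both conditions, so a difference in DNA content between the clones was not measured, and its part in the chromosome values was not tested.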

How the data were processed

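ChIP-seq of H3K27me3 was compared in 1 library of sg-Ctrl and 1 of Nup210 KO 4T1 cells, and 4 further lists (H3K4me3 in both, NUP210 and NPC in sg-Ctrl) served for other marks on the same genes. Another 7 of the 13 samples, RNA-seq and IgG, have no list and were not used here. For each H3K27me3 library the authors called peaks with SICER (window 1000 bp) against rabbit IgG and intersected them with RefSeq gene bodies. The deposited lists give whole-number counts of ChIP and IgG reads per peak, the p-value and FDR against IgG, and a ratio, the fold over IgG scaled by library size. The aligner and build of these lists are not given in the sources used here, since the processing notes name mm9, mm10 and NCBIM37 without a role. Of the 5740 genes matched to RefSeq by accession (98.0% of the 5860), 88.3% had their start or end within 50 bp of GRCm38.p6.

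Peaks were made distinct by position, overlapping isoforms of a gene were joined, and reads were divided by the library ratio that each list's own fold column implies. Reads given for a gene are those of each whole peak that meets it, with any part outside the gene, while covered length counts the gene body only. A gain or loss was at least 2-fold and 5 kb of covered length. Reads in peaks, 7719297 in sg-Ctrl and 26811061 in KO, give narrow counting intervals, but with 1 library a side no test was made. A promoter could be matched for 74.2% of genes, under the 80% needed, so no CpG value is given for gene sets. Members and gene lists were chosen with earlier results of these data known. Named genes are, per length class, the 2 with the largest gain and the 2 with the largest loss in covered percent, per gene class the longest covered and those with the largest gain and loss, the study's migration genes, the markers and the 3 widest shifts each way at the gene start. Tll1 was shown by the promoter rule stated beside its sequence, and Scn10a, Cacna1a, Gria1, Grik4, Sema3a, Epha7, Col4a5, Col12a1, Col22a1, Krt2, Hoxb9 and the Cyp4f genes were chosen after their values were seen. Some genes that this rule picks are not reported here. The tools were scipy 1.17.1, pandas 2.3.3, numpy 2.4.6 and matplotlib 3.10.9 under Python 3.11.15, and the coverage, position and call steps were tested on simulated data. The alternatives were other peak thresholds, scalings, call limits and chromosome sets.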

Additional observations from a re-analysis of the deposited data

How the results depend on the processing

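The ratio of covered length inside gene bodies, KO to sg-Ctrl, lay between 1.07 and 1.14 with other peak thresholds, a density floor, autosomes alone, the longest isoform and without chromosomes 4, 5, 8 and 18. Summed over genes, so that shared bases count more than once, it was 1.16 outside chromosomes 4, 5 and 18 and 1.08 outside chromosome 8. With no minimum length 1363 genes gained and 1031 lost, and with a minimum of 10 kb 483 and 386. The median log2 signal ratio was 0.22 when scaled on peaks of equal position, 1.73 with no scaling, 0.037 when peaks under 2-fold over IgG were dropped and 0.10 without chromosomes 4, 5, 8 and 18, and it reversed to -0.13 over each list's own peaks, which cover different lengths. The share of genes with the start covered in sg-Ctrl was 54.3% with 2-fold peaks, 64.4% within 2 kb, 39.0% in genes of at least 20 kb and 57.4% without those 4 chromosomes, and in KO it was 68.1% within 2 kb and 42.4% in genes of at least 20 kb. For the end these were 58.9% (1.5-fold peaks), 57.6% (2-fold), 65.4% (within 2 kb) and 42.4% (20 kb) in sg-Ctrl, and 64.5% (2-fold), 70.8% and 47.4% in KO. Class ratios of covered length reversed with 2-fold peaks for protocadherins (0.658), matrix metalloproteases and ADAM proteases (0.967) and zinc finger genes (0.833, and 0.925 with 1.5-fold peaks), and the cause was not tested. With 2-fold peaks the ratios of forkhead factors (0.187), cadherins (2.78) and matricellular genes (0.596) and 6 of the medians of covered percent by gene length also moved. Leaving out chromosomes 4, 5, 8 and 18 and the class counts with 2-fold peaks were chosen after seeing the data. No paired analysis was possible because each condition had 1 library, and for the same reason no library could be left out.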

Other observations

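Cytochrome P450 genes, which oxidise drugs, steroids and fatty acids, counted 7 gains and 3 losses in 38 (18.4 and 7.89%, against 12.6 and 10.2% over all genes), and 5 of the gains were in the Cyp4f family. Cyp4f14 and Cyp4f15 were covered whole in KO and had no peak in sg-Ctrl, Cyp4f17 had 11 kb covered in KO alone, Cyp4f40 had 3.48 and 11 kb and Cyp4f18 3.52 and 21.1 kb. The first 4 lie together on chromosome 17 and Cyp4f18 lies on chromosome 8, so the 5 are not independent. Interleukins and their receptors counted 4 gains and 5 losses in 37 (10.8 and 13.5%), near the shares over all genes of 12.6 and 10.2%. Il1rapl1 had 159 kb covered in sg-Ctrl and no peak in KO, and Il1rapl2 had 72 and 246 kb. Chemokines and their receptors counted 1 gain and 0 losses in 18 (5.56 and 0%, against 12.6 and 10.2% over all genes). The gain was Ccr1, covered whole over 6.57 kb in KO alone.

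Solute carriers, the membrane transporters, were evenly split, with 16 gains and 15 losses in 115 genes, close to the shares over all genes. Slc25a21 had 162 and 351 kb covered and Slc24a3 204 kb and no peak. Zinc finger protein genes had a peak in 43 of 429 in sg-Ctrl and 41 in KO, with Zfp423 at 6 and 110 kb. Growth factors moved both ways, with Fgf12 at 54 and 197 kb and the receptor gene Bmpr1b at 62.9 and 2.87 kb. By RefSeq type, 20.2% (19.7 to 20.7) of protein-coding genes had a peak in sg-Ctrl and 20.8% (20.3 to 21.4) in KO, lncRNA genes 13.6% in both and miRNA genes 6.43% (5.19 to 7.95) and 7.17% (5.85 to 8.75).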
